A study of Mus musculus with 2 samples.

Results

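In 72 stretches of the mouse autosomes, a chain of closely spaced Ebf1 peaks held at least 3 strong ones in mature fat cells. These clusters were taken from a list of 34534 Ebf1 peaks. The peaks of chromosomes 1 to 19 were sorted by centre and joined to the next peak wherever the centres were at most 12.5 kb apart. A cluster was kept if 3 or more of its peaks had a deposited score of 55 or more. Such peaks are called strong below, and all others weak. The 72 clusters held 646 peaks, of which 247 were strong and 399 weak. They were 1.94% of the 33352 autosomal peaks and carried 4.08% of the summed autosomal score.

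The cells were adipocytes of 3T3-L1, a line of mouse embryo fibroblasts that is induced to form fat cells with the hormone cocktail MDI. They were fixed with 1% formaldehyde on day 10 after induction. The labels describe 2 libraries, 1 precipitated with an antibody against Ebf1 and 1 made from whole cell extract with no antibody. The peak list of the Ebf1 library is the only data used here, so no value below has a replicate error and no test between conditions was possible. The read depth is unknown.

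Ebf1 is a transcription factor of the early B cell factor family, which binds DNA as a dimer through a zinc-containing DNA-binding domain and a helix-loop-helix region. It is known as a regulator of the B lineage and of fat cell formation. Regulatory regions of a cell type's characteristic genes often lie in groups, with several bound elements spread along a locus, and such groups are commonly found by joining neighbouring bound sites over a fixed distance. The same factor can occupy some elements of a group strongly and others weakly. No histone mark or coactivator was measured here, so the clusters are groups of Ebf1 peaks and nothing more is implied by the word. The meaning of the score is not stated, and no mm9 gene annotation was used, so each cluster is named by its mm9 coordinates.

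Both position and score chose the members, so the counts and scores that follow describe the clusters and are not tested. Of all autosomal peaks, 10.4% were strong (3462 peaks), and the 247 strong members were 7.13% of these. Among the 6224 autosomal clusters of 2 or more peaks, 1.16% met the rule. Most of the 72, 49 clusters, held exactly 3 strong peaks. Another 17 held 4, 4 clusters held 5, and 2 clusters held 6. The number of peaks of any score ranged from 3 to 37 with a median of 7. Span ranged from 7.22 to 112.8 kb with a median of 30.4 kb and quartiles of 20.5 and 43.5 kb. Altogether the clusters spanned 2.51 Mb, of which the median cluster had 12.1% covered by peaks.

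**Figure D1:**
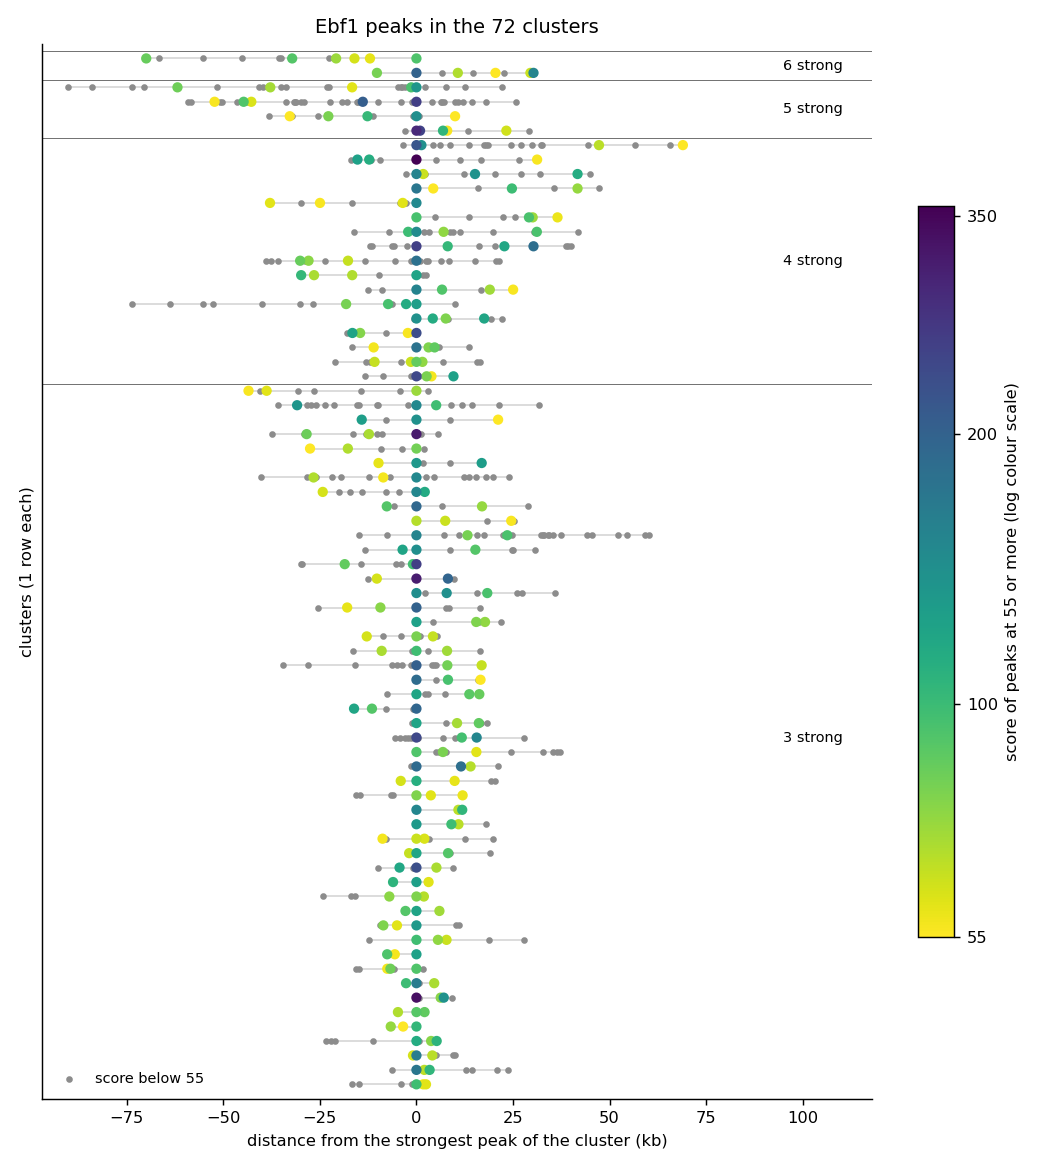
Every peak of the 72 clusters, 1 row a cluster, at its distance in kb from the cluster's strongest peak (x axis). Grey points are peaks with a score below 55, coloured points are strong peaks on a log colour scale, and rows are grouped by the number of strong peaks; the clusters span 7.22 to 112.8 kb, with weak peaks between and beyond the strong ones.

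The 2 clusters with 6 strong Ebf1 peaks differed in shape. At chr8:119871651-119912825 the strong peaks scored 81, 199, 69, 55, 64 and 153 in order along the chromosome, and they made up 6 of 9 peaks. The strongest, at chr8:119881801-119882575, was followed 30.3 kb later by the next strongest at chr8:119912151-119912825. At chr5:136148751-136219300 the scores were 85, 91, 73, 62, 59 and 93, within 12 peaks. No peak stood out there: the third strongest reached 0.914 of the strongest, the highest such ratio among the 72 clusters. The first of these strong peaks lay 37.8 kb from the second, and weak peaks bridged that distance.

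Of the 4 clusters with 5 strong peaks, chr16:32656601-32689225 had the highest summed score of strong peaks, 761. Its 2 leading peaks, chr16:32659401-32660225 with a score of 289 and chr16:32660301-32661200 with 248, had centres 0.938 kb apart. The remaining strong peaks of this cluster scored 105, 56 and 63. At chr8:71344876-71430075 the 5 strong peaks scored 56, 92, 61, 207 and 253 and stood among 32 weak ones, so only 13.5% of the peaks were strong. The pair of 207 and 253 had centres 13.9 kb apart. At chr8:11221326-11334150, the longest cluster with 112.8 kb, the scores were 83, 71, 60, 94 and 134, and 19 weak peaks were listed as well. The cluster at chr2:164243026-164291600 held strong peaks of 55, 80, 102, 142 and 55, evenly spaced with neighbouring centres 9.99 to 12.7 kb apart.

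**Figure D2:**
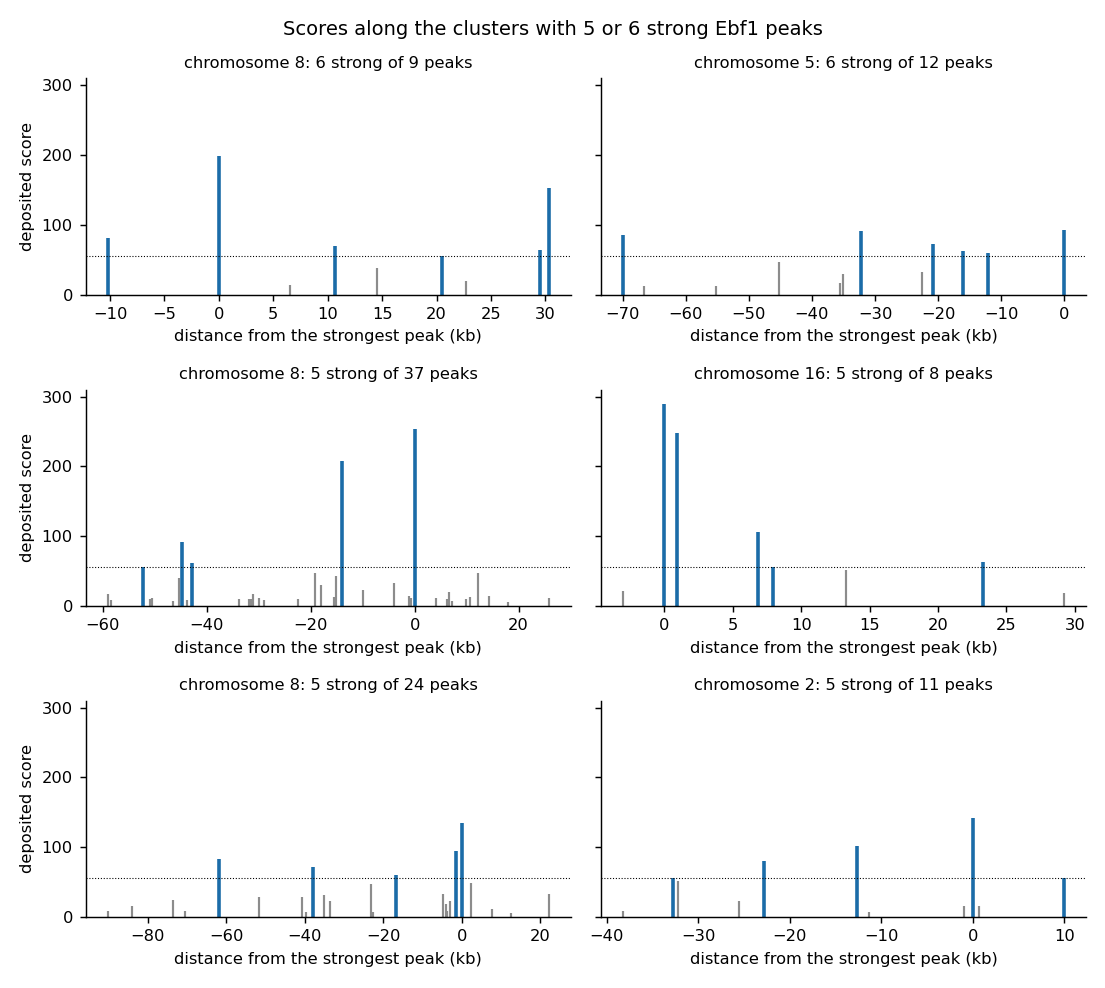
Deposited score (y axis) against distance from the strongest peak in kb (x axis) for each peak of the 6 clusters with 5 or 6 strong peaks. Blue bars are strong, grey bars weak, and the dotted line is the score of 55; the chromosome 16 cluster is led by 2 adjacent peaks of 289 and 248, while the 6 strong peaks on chromosome 5 lie between 59 and 93.

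Ranked by the summed score of strong peaks, 3 of those clusters and 7 others made up the 10 highest. The cluster at chr8:71344876-71430075 summed to 669, below chr16:32656601-32689225, and chr8:119871651-119912825 summed to 621. The other 7 had 3 or 4 strong peaks, each led by a peak of 232 or more. The cluster at chr6:94865601-94917975 had peaks of 251, 103, 117 and 183, a sum of 654. At chr6:55221301-55269950 a peak of 359, the highest score of any member, stood with strong peaks of 124, 112 and 56. The cluster chr6:115448626-115471375 had 310 and 196 as its leading scores and 62 for its next. A cluster of 9.80 kb, chr6:29764401-29774200, held peaks of 332, 77 and 138 and was the most crowded of the 72, with 6.12 peaks per 10 kb. The 4 strong peaks at chr5:136478651-136502100 scored 239, 80, 57 and 124. The cluster at chr17:84783851-84817350 had 239, 96 and 152. At chr14:32457701-32476350, the only cluster on chromosome 14, the scores were 121, 78, 56 and 232.

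In most clusters the strong peaks were unequal. The strongest peak of a cluster scored between 64 and 359, with a median of 142.5, and it reached 100 in 56 clusters and 200 in 15. The second strongest had a median score of 94 and the third strongest a median of 70. As a ratio to the strongest, the second strongest had a median of 0.732 (quartiles 0.589 and 0.858) and the third strongest a median of 0.496. The ratio of second to strongest was above 0.8 in 26 clusters and below 0.5 in 12. The third strongest peak reached 100 in 5 clusters. Strong peaks were 38.2% of the member peaks and carried 78.1% of their summed score. Because the score defines strong peaks, their share of the score must exceed their share of the peaks.

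The clusters at the 2 ends of this range show what the ratio means. At chr17:84264151-84307375 a peak of 314 stood with strong peaks of 84 and 70, so the second reached 0.268 of the first, the lowest ratio. The other low ratios were 0.345 at chr6:55221301-55269950, 0.382 at chr6:29134401-29164800, 0.383 at chr17:34804326-34846400 and 0.403 at chr15:34264726-34303250. In the last of these a peak of 149 was joined by peaks of 60, 60 and 56. At the other end, the ratio was 0.989 at chr19:36740026-36777100, where peaks of 95 and 94 lay 29.1 kb apart. Nearly equal leading peaks were also listed at chr5:24583901-24620300, with 143 and 141, and at chr6:100737626-100760775, with 188 and 182. The remaining 2 high ratios were 0.978 at chr5:136148751-136219300 and 0.967 at chr6:52450276-52457725.

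**Figure D3:**
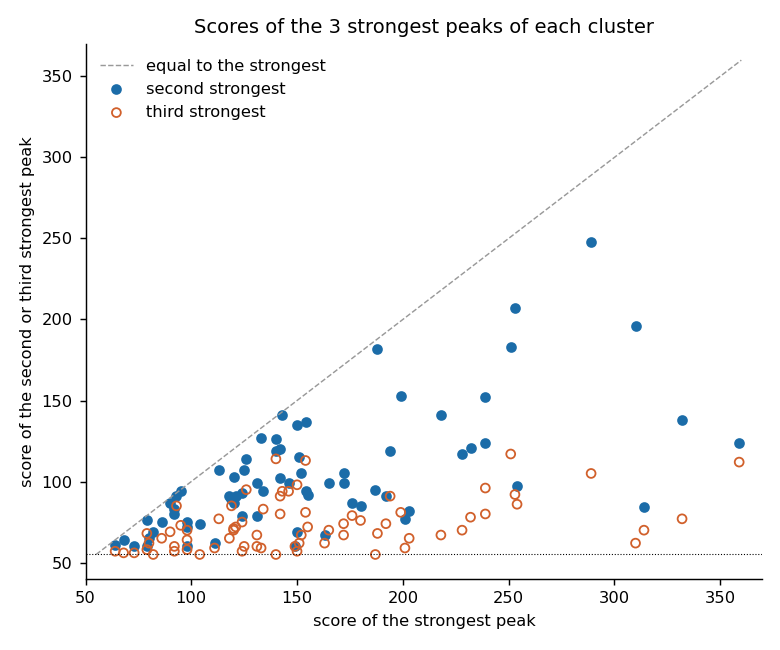
Score of the second strongest (filled blue) and the third strongest peak (open orange) of each of the 72 clusters against the score of its strongest peak. The dashed line marks equality and the dotted line the score of 55; the third strongest peaks lie between 55, the floor set by the rule, and 117.

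The highest scores of the third strongest peak were 117, 114 and 113. The first was in chr6:94865601-94917975. The second belonged to chr8:71516526-71539475, whose 4 strong peaks scored 140, 114, 79 and 119 within 17.5 kb. The last was in chr8:108669276-108717375, where peaks of 154, 64, 137 and 113 extended over 41.7 kb. At the threshold itself, 4 clusters had the third strongest peak at exactly 55: chr1:193259051-193295025, chr4:134838576-134868475, chr11:69224601-69231825 and chr11:120374126-120391300. In all, 15 clusters had the third strongest peak at 55 to 59. Just outside the rule, 16 clusters with 2 strong peaks had the third strongest at 50 to 54. The nearest of these, chr14:77654826-77661275, had scores of 136, 117 and 54.

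Small clusters without or with few weak peaks formed 1 end of the set. In 4 clusters every peak was strong, and each of these had exactly 3 peaks. They were chr3:41302626-41315175 with 152, 67 and 105, chr11:51747676-51757425 with 107, 125 and 60, chr11:69224601-69231825 with 74, 55 and 104, and chr15:75948276-75957625 with 91, 121 and 72. The cluster on chromosome 11 from 69224601 was also the shortest of the 72, at 7.22 kb. No other peak lay within 100 kb of its ends. The next shortest were chr6:52450276-52457725 at 7.45 kb, chr4:43738676-43746575 at 7.90 kb, chr11:118987201-118995675 at 8.47 kb and chr15:75948276-75957625 at 9.35 kb. The chromosome 4 cluster had 3 strong peaks of 99, 165 and 70 among 4 peaks.

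Long clusters with many weak peaks formed the other end. After chr8:11221326-11334150 the longest were chr8:71344876-71430075 at 85.2 kb, chr6:21735126-21819200 at 84.1 kb, chr8:113296826-113371975 at 75.2 kb and chr17:46142501-46215450 at 73.0 kb. In the chromosome 6 cluster the 4 strong peaks of 81, 95, 114 and 126 lay within 18.2 kb, and weak peaks alone filled the rest. On chromosome 17 the 4 strong peaks scored 218, 141, 67 and 55, with the first pair 1.29 kb apart and the last 69.0 kb from the first. The lowest share of strong peaks, 12% or 3 of 25, was in chr8:113296826-113371975, with strong scores of 154, 81 and 94. Low shares were also found in chr6:17223501-17291425 and chr11:98772551-98837175, each with 3 strong of 19 peaks, and in chr8:71344876-71430075 and chr17:46142501-46215450. In chr8:113296826-113371975 and chr11:98772551-98837175 the strong peaks carried less of the summed score than the weak ones did, 46.3% and 46.9%. In the median cluster they carried 83.8%.

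How the strong peaks are spaced was examined next. Between neighbouring strong peaks of a cluster there were 175 gaps, measured from centre to centre. Their median was 7.54 kb, with quartiles of 3.17 and 11.9 kb and a range of 0.725 to 46.0 kb. For comparison, the 296 clusters with exactly 2 strong peaks had a median gap of 6.79 kb, with quartiles of 3.10 and 11.3 kb. The joining distance limits how far apart neighbouring peaks of any score can be and so bears on both medians, although weak peaks can bridge longer gaps. The difference was not tested. Of the 175 gaps, 26 (14.9%) were at most 2 kb and 67 (38.3%) at most 5 kb. The shortest gap was in chr8:97292751-97312375, where strong peaks of 98, 58 and 60 lay within 2.48 kb, the tightest group of strong peaks in any cluster.

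Weak peaks were needed to join a minority of the strong ones. Of the 175 pairs of neighbouring strong peaks, 85 (48.6%) had no weak peak between them, 48 had 1 and 42 had 2 or more, up to 13. In 39 pairs (22.3%) the centres were further apart than the joining distance, so only weak peaks linked them. If strong peaks alone were joined, 50 of the 72 clusters would still hold a chain of 3, and 22 would not. All strong peaks formed a single chain in 41. In 22 clusters 3 or more strong peaks followed each other with no weak peak between, and in 16 no 2 strong peaks were adjacent.

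Weak members lay between and outside the strong ones in near equal number. Between the outermost strong peaks of their cluster lay 194 weak peaks (48.6%), with a median score of 14. Outside them lay 205 (51.4%), with a median score of 13. The nearest strong peak was a median of 5.60 kb away. Within 1 kb of a strong peak, 50 weak peaks had a median score of 13. The 62 at 1 to 2.5 kb had a median of 20.5, the 77 at 2.5 to 5 kb a median of 15, the 98 at 5 to 10 kb a median of 13 and the 112 beyond 10 kb a median of 12. The quartiles of these groups overlapped (11 and 28.8 at 1 to 2.5 kb, 8 and 18 within 1 kb). A strong peak stood at 1 end of the cluster or at both in most cases, and in 27 clusters weak peaks formed both ends.

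The place of the strongest peak along the cluster was not used by the rule. It lay inside, with another peak on either side, in 55 of the 72 clusters, or 76.4% (exact Clopper-Pearson 95% interval 64.9 to 85.6, for counting error only). Inner positions made up 77.7% of all positions pooled over these clusters. Pooling gives large clusters more weight, which raises this share, while the 76.4% counts each cluster once. The 2 shares are therefore not on the same footing, and whether the strongest peak favours inner positions was not tested. In clusters with 2 strong peaks and at least 3 peaks, the strongest peak lay inside in 57.0% (50.5 to 63.3) of 244. Inner positions, pooled in the same way, made up 60.8% there. The clusters are larger than those, which raises the first share by itself.

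Each peak also carries another whole number in the list, called the second value here. Its meaning is not stated, and it was not used by the rule. It ranged from 0 to 15 over the list and from 0 to 12 in the members, with 12 at the leading peak of chr4:43738676-43746575 among others. Strong members had a median second value of 4 (quartiles 2 and 5) and a mean of 4.15. The 3215 other strong autosomal peaks had a median of 3 and a mean of 3.28. Their mean was 3.35 once they were weighted to the members' scores in steps of 10, so the members' mean was 1.24 times that of other peaks with like scores. A value of 0 was given to 3 strong members (1.21%) and to 6.91% of the other strong peaks. A value of 8 or more was given to 30 strong members (12.1%), spread over 25 clusters, against 4.51% of the others.

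This difference was found in each range of the score. At scores of 55 to 64 the mean second value was 3.41 ± 2.05 (SD, n = 54 peaks) in members and 2.88 ± 2.01 (SD, n = 720 peaks) in others. From 80 to 99 it was 4.31 ± 2.52 (SD, n = 52 peaks) and 3.15 ± 2.13 (SD, n = 631 peaks). At 200 or more it was 5.94 ± 2.95 (SD, n = 17 peaks) and 4.86 ± 2.90 (SD, n = 133 peaks). In each of the 6 score ranges the members' mean was higher, and in each the difference was smaller than 1 SD among peaks. Peaks of 1 library are not replicates, so no test was made.

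**Figure D4:**
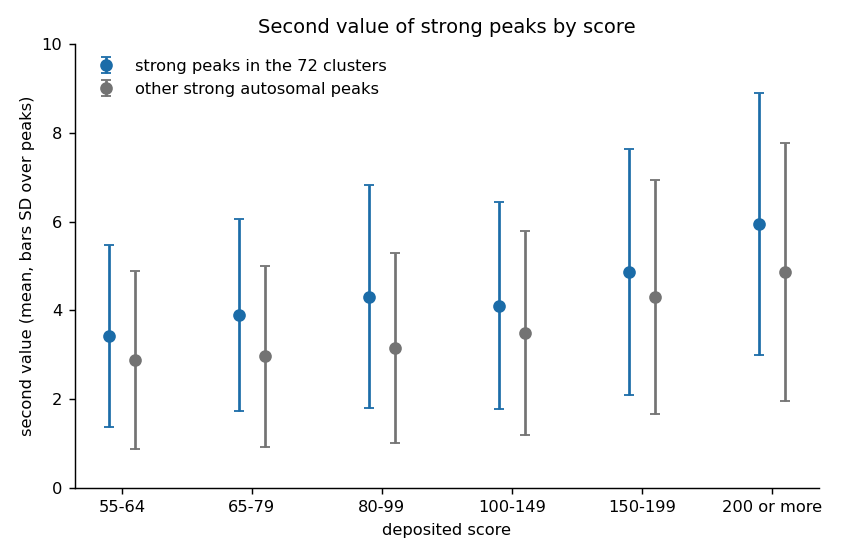
Mean second value (y axis, bars are the SD over peaks) of strong peaks in the 72 clusters (blue) and of other strong autosomal peaks (grey) in 6 ranges of the deposited score (x axis). The members' mean is higher in all 6 ranges, by less than 1 SD.

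The second value was higher the more strong peaks a cluster held. With scores matched to those of the members, its mean over strong peaks was 3.18 for the 1144 that stood alone, 3.36 for the 1479 in clusters with no other strong peak, 3.65 for the 592 in clusters of 2 and 4.15 for the 247 members. Without matching, a value of 0 was given to 8.57%, 6.29%, 5.24% and 1.21% of these peaks. Weak members had a mean of 1.76, against 1.45 for other weak peaks of equal score. Without matching, weak peaks in clusters of 2 strong peaks had nearly the same mean, 1.75, and those in clusters of 1 had 1.56. Weak peaks outside the 72 clusters but within 100 kb of them had 1.63. Around clusters of 2, clusters of 1 and lone strong peaks such peaks had 1.55, 1.54 and 1.45. Around clusters with no strong peak they had 1.49. The median of strong members by cluster reached 9 at chr8:11221326-11334150 and was 1 at the low end, so single clusters varied widely.

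Chromosomes were compared because the clusters were unevenly spread over them. Within chromosomes, strong members had a higher mean second value than the other strong peaks on 16 of the 17 chromosomes with a cluster. The count was 15 with scores matched in steps of 50. Several of these chromosomes had few strong members. There were 3 each on chromosomes 3, 10 and 12 and 4 on chromosome 14, from 1 cluster each. Chromosomes 7 and 9 had 6 each. On chromosome 6, which held the most clusters, the means were 4.25 and 4.24 and so hardly differed. With scores matched the other strong peaks there had 4.42, above the members, and this is the chromosome by which the counts of 16 and 15 differ. On chromosome 15 the members were lower, with 2.43 over 7 peaks against 3.07. On chromosome 8 the means were 4.65 over 40 members and 3.65, and on chromosome 11 they were 4.21 over 28 members and 3.16. With the other strong peaks weighted to the members' chromosomes, their mean was 3.49. What part the chromosome or the score plays in the difference was not tested beyond this.

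Stronger peaks were wider in the median, from 550 bp at scores of 55 to 64 to 800 bp at 200 or more, in members and in other strong peaks alike. Strong members had a median width of 625 bp (range 425 to 975 bp), and other strong peaks with matched scores had the same median. Their mean widths were 661.6 and 646.3 bp. Weak members had a median width of 300 bp, against 325 bp for other weak peaks of equal score.

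Along the genome, 44 of the 72 clusters (61.1%) lay on chromosomes 6, 8, 11, 17 and 19, which held 11, 10, 9, 7 and 7. These 5 chromosomes, picked after the counts were seen, held 30.4% of autosomal peaks and 32.8% of strong ones. Of the 296 clusters with 2 strong peaks, 116 (39.2%) lay on them. On the 5 chromosomes, 13.2% of strong peaks were in one of the 72 clusters, against 4.17% on the other autosomes. Chromosome 19 had the highest share, 17.0% of its 135 strong peaks, followed by chromosome 8 with 14.8% of 271. Chromosomes 13 and 18 held no cluster, with 100 and 97 strong peaks, and chromosomes 3, 10, 12 and 14 held 1 each. Chromosome 2, with 317 strong peaks the most of any autosome, had 4 clusters. The 5 chromosomes with the most clusters were also the 5 with the most strong peaks per Mb, between 1.99 on chromosome 6 and 2.32 on chromosome 19, and chromosome 2 came next with 1.77. A rule based on distance finds more clusters where strong peaks are denser, and the part of this density in the counts was not tested.

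**Figure D5:**
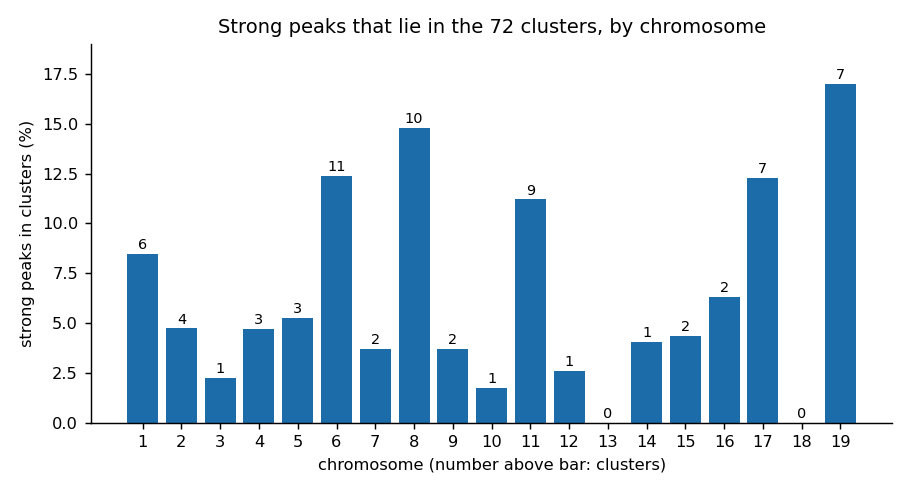
Share of each autosome's strong Ebf1 peaks that lie in the 72 clusters (y axis, percent), with the number of clusters above each bar. Chromosomes 19, 8, 6, 17 and 11 are highest, from 17.0% to 11.2%, and chromosomes 13 and 18 have none.

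Several clusters were near neighbours. At 6 places the next cluster began within 500 kb of the end of the last. The closest were chr8:119814251-119858550, with strong peaks of 120, 142 and 91, and the cluster of 6 strong peaks at chr8:119871651-119912825. Their facing peaks had centres 13.5 kb apart, just past the joining distance, and both together held 9 strong peaks over 98.6 kb. On the same chromosome chr8:71344876-71430075 and chr8:71516526-71539475 held 9 strong peaks over 194.6 kb. On chromosome 5 the clusters from 136148751 and from 136478651 held 10 over 353.4 kb. On chromosome 17 the 3 clusters from 84264151, 84378301 and 84783851 held 9 strong peaks over 553.2 kb.

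Outside their ends, the clusters had somewhat more Ebf1 peaks nearby than single strong peaks did. Within 100 kb on either side lay a median of 7.50 further peaks (quartiles 3.75 and 11). The median was 6 around clusters of 2 strong peaks (3.75 and 9), 5 around clusters of 1 (3 and 8) and 4 around strong peaks that stood alone (2 and 7). Around clusters of 2 or more peaks with none strong it was also 5 (2 and 8). The quartiles overlapped throughout. Of the neighbouring peaks around the 72 clusters, 12.8% of 580 were strong. This share was 15.2% of 2030 around clusters of 2, 13.4% of 8748 around clusters of 1 and 13.6% of 5450 around lone strong peaks. Around clusters with no strong peak it was 11.0% of 25338, and over all autosomal peaks 10.4%. At least 1 further strong peak lay in these flanks for 39 of the 72 clusters (54.2%). The share was 57.8% for clusters of 2 strong peaks, 48.5% for clusters of 1 and 40.7% for strong peaks alone, so the members did not have the highest. No further peak lay in the flanks of 3 of the 72 clusters, 5 of the 296 clusters of 2 and 39 of the 1479 clusters of 1. The same held for 74 of the 1144 lone strong peaks and 210 of the 4377 clusters with no strong peak. The 3 clusters were chr1:79717951-79743625, chr10:8655251-8672950 and chr11:69224601-69231825. The first lay 696.4 kb from the nearest peak before it and 161.1 kb from the next after it.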

How the data were processed

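The data are 1 peak list from 1 Ebf1 chromatin immunoprecipitation library, with no replicate. Per the labels' protocols, ligation products of 275 to 700 bp went through 18 PCR cycles. Per the submitters' processing notes, the build was mm9 and SAMtools was used. For the aligner, the peak caller and its threshold nothing was stated in these sources. No header names the columns of the deposited list, and both number columns were treated as a score of unstated meaning. Positions lie on a 25 bp grid and were used as deposited, with both ends included. The gene tables at hand belong to GRCm38, so motifs, gene positions and gene lists were not analysed, and no sequence is shown. Depth is unknown.

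Members and lists were chosen with earlier results of these data known. Clusters named are those with 5 or more strong peaks and the extremes of summed strong score, span, share of strong peaks, score of the third strongest peak and score ratio, 37 in all. Other clusters named, for spacing, crowding, nearness or isolation, were chosen after their values were seen. For score matching, other peaks were weighted to the members' distribution over score bins of 10, joined from 200 on, and weak peaks over single scores. Clustering and matching were tested on simulated data. For matching, only medians were checked, with a tolerance as large as the matched difference of 1 in median second value. The weighted means were not checked in this way. Alternatives were joining distances of 5 and 25 kb, strong scores of 40 and 70, and 2 or 4 strong peaks. The work used scipy 1.17.1, pandas 2.3.3 and numpy 2.4.6 under Python 3.11.15, with figures by matplotlib 3.10.9.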

Additional observations from a re-analysis of the deposited data

Results flagged for a closer look

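Outside the autosomes, and so outside all comparisons above, the same rule found 1 cluster. It lay on the unplaced sequence chrUn_random from 3632026 to 3659100 and held 3 strong peaks among 5, with scores of 120, 110 and 86. It is given because these peaks were part of the list and of no comparison.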

How the results depend on the processing

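The set follows its thresholds by construction. Of 32 alternative values, 13 stayed within 1.5 times the reported value (for the share of strongest peaks lying inside, within its 95% interval, and for second value and width within 1 SD) and 19 moved. At a joining distance of 5 kb there were 16 clusters with 79 peaks, a median span of 7.68 kb and a median gap between strong peaks of 2.91 kb. At 25 kb there were 150 clusters with 1751 peaks, a span of 72.2 kb and a gap of 12.3 kb. With strong set at a score of 40 there were 154 clusters with 1163 peaks, and at 70 there were 38 with 402. Asking for 2 strong peaks gave 368 clusters with 1994 peaks, a span of 17.1 kb and the strongest peak inside in 61.4%. Asking for 4 gave 23 clusters with 285 peaks and a span of 47.8 kb. The strongest peak lay inside in 68.8% to 78.3% under the 5 other settings. Unmatched for score, strong members exceeded other strong peaks by 1 in median second value, as with matching, and by 25 bp in median width, against 0 with matching. Motif windows and gene assignment were planned and not run without an mm9 reference. No replicate could be left out, and no paired analysis was possible because only 1 library has values here.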
